A study of Homo sapiens with 6 samples.

Results

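The oxidative phosphorylation genes described here are the nuclear genes whose names place them in the respiratory chain or the ATP synthase. They were chosen by name alone, with no filter on expression, from the NDUFA, NDUFB, NDUFC, NDUFS and NDUFV families, SDHA to SDHD, the UQCR genes, the COX4 to COX8 subunit genes and all names starting with ATP5. The rule took 87 of the 18678 genes of the deposited table, 43 named after complex I, 4 after complex II, 9 after complex III, 11 after complex IV and 20 after complex V. Of these, 75 are subunit genes (37, 4, 8, 11 and 15 for complexes I to V). The other 12 are 4 pseudogenes, 3 antisense RNAs, 2 readthrough transcripts, the paralogue NDUFA4L2, and ATP5S and ATP5SL, which are named after the ATP synthase without being subunits of it.

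The respiratory chain sits in the inner mitochondrial membrane. Complexes I and II pass electrons from NADH and succinate to ubiquinone, complex III passes them on to cytochrome c, and complex IV hands them to oxygen. Complexes I, III and IV pump protons, and the ATP synthase, complex V, uses the returning protons to make ATP. Complex II is built wholly from nuclear genes, while the others combine nuclear subunits with a core set encoded by mitochondrial DNA. None of the 13 mitochondrially encoded subunit genes was among the genes analysed here, so only the nuclear side of each complex was measured.

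The samples were cultures of Cal27, an established tongue squamous carcinoma line, and of Cal27-shGRK2, the same line with a short hairpin RNA against GRK2, a kinase that desensitizes G-protein coupled receptors. The study addressed the part of GRK2 in keeping the epithelial character of head and neck tumours. Both groups were grown in DMEM with 10% fetal bovine serum to 70% confluency and gave total RNA for stranded mRNA libraries. Whether the Cal27 cultures carried a control vector, how many hairpins or clones the knockdown line stands for, and whether libraries came from separate cultures is not stated in the labels, so p-values here measure only the spread between these libraries. Each group had 3 deposited libraries, numbered 0, 1 and 2. In Cal27-shGRK2, replicates 0 and 1 had the same value in all 18678 genes. The 2 identical columns were counted as 1 sample, whereas the remaining pairs of a group had 55 to 94 genes with equal values. The authors' condition value for Cal27-shGRK2 equalled the mean of its 3 columns in 52 of 13383 genes, against 13383 of 13383 for Cal27. Comparisons therefore rest on 3 Cal27 libraries and 2 distinct Cal27-shGRK2 libraries, called replicate 0 and replicate 2 below.

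Levels are given in FPKM, a fragment count scaled by transcript length and by library size. FPKM summed over the table to 613330, 644831 and 622495 in the Cal27 libraries and to 590163 and 615468 in the Cal27-shGRK2 libraries, and read counts per library were not used here, so the depth behind each value is unknown. Fold changes are differences in log2(FPKM + 1), Cal27-shGRK2 minus Cal27, from limma across the 13377 genes that averaged 1 FPKM or more, with the standard error and a Benjamini-Hochberg adjusted p over all of them. Genes with an adjusted p under 0.05 are said to have risen or fallen. GRK2, listed as ADRBK1 (ENSG00000173020.10, chr11:67266410-67286556, plus strand), was at 55.3, 59.4 and 55.8 FPKM in Cal27 replicates 0, 1 and 2 and at 17.3 and 16.6 FPKM in Cal27-shGRK2, a log2 change of -1.69 ± 0.06 (limma adjusted p = 3.77e-11). An exact two-sided permutation test over these 5 libraries gave p = 0.1, the smallest value that its 10 splits allow. Summed over 7 squamous carcinoma markers (KRT5, KRT6A, KRT17, TP63, SOX2, CDH1 and EPCAM), levels ran from 2846 to 3169 FPKM in Cal27 and from 1107 to 1142 FPKM in Cal27-shGRK2. Most of each sum was KRT5, with means of 2187 and 756 FPKM. Of the 7, 5 fell and 2 rose, the latter being CDH1 (0.57) and EPCAM (0.45). Of the markers of other cells, 4 of 7 for fibroblasts, 1 of 5 for blood, 1 of 4 for endothelium and 2 of 7 for striated muscle were in the table, with summed levels of 4.35 to 4.71 FPKM in Cal27 and 4.38 to 4.46 FPKM in Cal27-shGRK2 for fibroblasts, 0.706 to 1.15 and 0.527 to 0.732 FPKM for blood, and 10.1 to 10.9 and 10.4 to 12.5 FPKM for striated muscle. The endothelial marker in the table, CDH5, the cadherin of endothelial junctions, rose from 3.57, 3.97 and 3.50 FPKM in Cal27 to 7.01 and 6.80 FPKM in Cal27-shGRK2 (log2 change 0.76 ± 0.09, limma adjusted p = 7.9e-06). The part of these markers in the results below was not tested. In bulk RNA, fewer cells of a type and less RNA per cell cannot be told apart.

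Many nuclear genes of the respiratory chain and ATP synthase fell in Cal27-shGRK2, by small amounts and in each of the 5 complexes. Of the 82 members that could be tested, 42 fell and 0 rose, where 14.6% of all genes tested fell and 15.0% rose (29.6% in either direction). The 42 were all subunit genes, so 42 of the 74 subunit genes tested (56.8%) fell. At an unadjusted p under 0.05, the count of members that were higher was also 0, against 19.8% of all genes. The log2 fold change was below 0 for 71 of the 74 subunit genes, and its median was -0.19, where the median over all genes was -0.01. Among the 42 genes the mean FPKM was lower by 11.3% to 28.4%, with a median of 16.1%, and standard errors over the subunit genes ran from 0.06 to 0.09 on the log2 scale. In 60 of the 74, both Cal27-shGRK2 libraries were below all 3 Cal27 libraries, against 27.4% of all genes. In 1, both were above, against 25.9% of all genes, and in the other 13 the groups overlapped.

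The authors' deposited table, which compares the same groups with Cuffdiff, marked 15 of the 87 members as significant, 15 lower and 0 higher, against 7.08% and 8.28% of the 18678 genes. They were NDUFA4, NDUFA1, NDUFA5 and NDUFA6 of complex I, SDHB, then UQCRH, UQCRC1 and UQCRFS1 of complex III, COX7B, COX6C, COX5B, COX7C and COX6B1 of complex IV, and ATP5I and ATP5G3 of complex V. All 15 were among the 42 that fell in the limma fit.

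The count depended on the Cal27-shGRK2 replicate 0 library. Replicate 0 was below replicate 2 in 67 of the 74 subunit genes (90.5%) and in 70.2% of all genes tested. Without it, and so with 1 Cal27-shGRK2 library whose spread was taken to be that of the other group, 14 members fell, against 8.13% of all genes, and the median log2 change of all 82 members was -0.14. Without Cal27-shGRK2 replicate 2, 31 members fell, against 10.8% of all genes, and without Cal27 replicate 2, 27 did, against 11.9% of all genes. Across all 16 alternatives to the fit, 14 of the 42 members stayed past the threshold in every one. These 14 were NDUFA1, NDUFA4, NDUFA6, NDUFC1, UQCRH, COX5B, COX6B1, COX6C, COX7A2, COX7B, COX7C, ATP5B, ATP5G3 and ATP5I. In no alternative did a member rise.

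**Figure D1:**
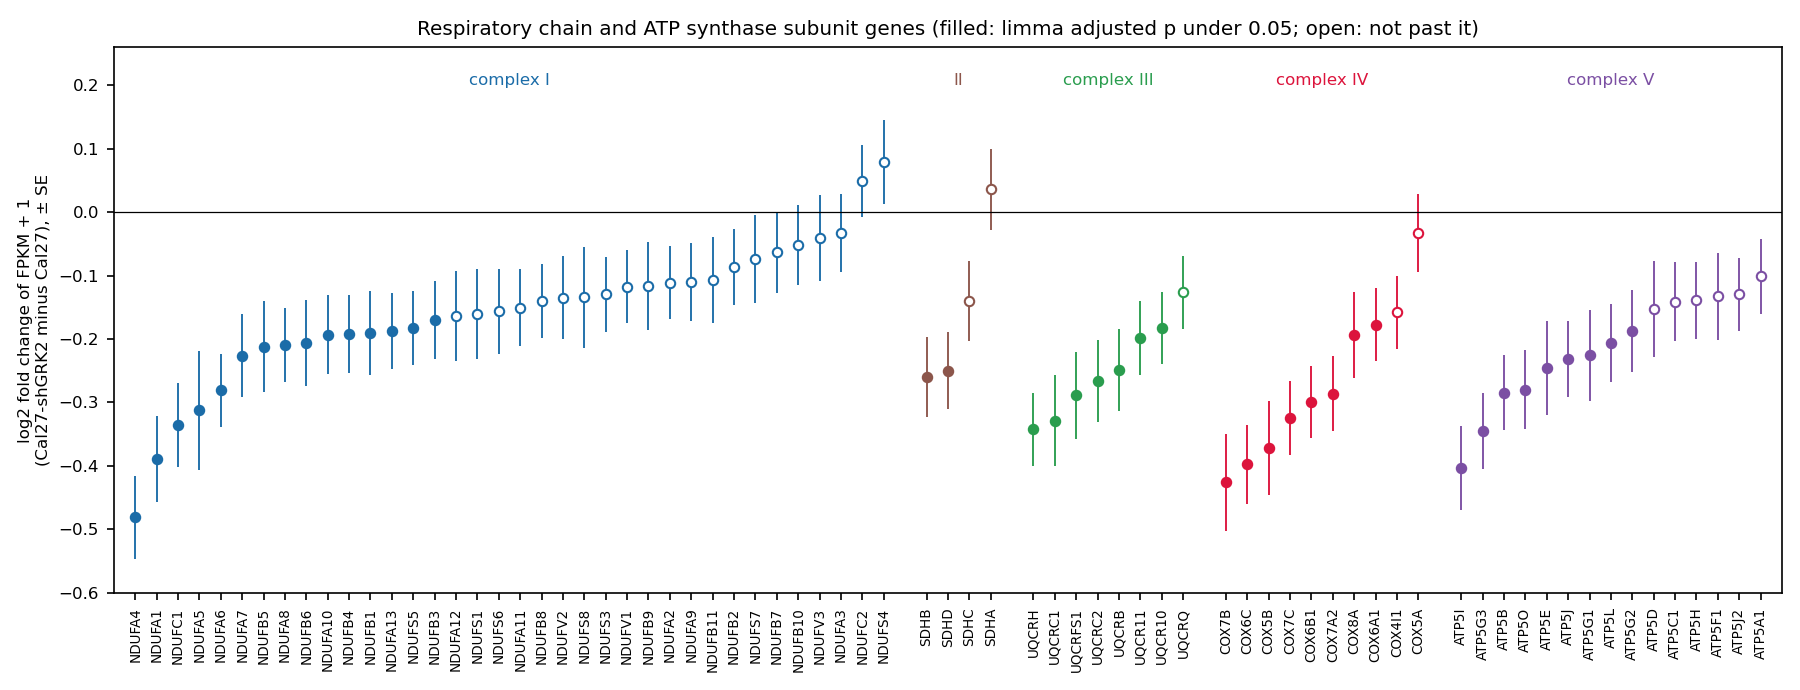
Log2 fold change of FPKM + 1 (Cal27-shGRK2 minus Cal27, y axis) with its standard error for subunit genes tested, ordered within each complex, with 1 gene not drawn. Filled points are genes with a limma adjusted p under 0.05, all of them below 0, and 3 open points (NDUFC2, NDUFS4 and SDHA) lie above 0.

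The subunit genes were abundant and short. Their mean over the 5 libraries ran from 20.8 FPKM (NDUFV3) to 1383 FPKM (COX8A), with a median of 165 FPKM, and 70 of the 74 were at 50 FPKM or more. Of all 2172 genes at that level, 20.2% fell and 12.2% rose, with a median log2 change of -0.04. The median transcript length was 1080 bases for the subunit genes and 2821 bases for all genes tested, and 35 of the 74 had transcripts of at most 1000 bases. Of all 1587 genes with transcripts that short, 15.9% fell, with a median of -0.04. Across the 74 subunit genes, which share their libraries, Spearman's rho of the log2 change was -0.07 with the mean level and -0.05 with transcript length, given as a description. With a smooth trend on transcript length removed from each library, 31 members fell, against 14.1% of all genes. After libraries were rescaled to a common total, 30 members fell, against 11.3% of all genes, and this rescaling turned the split over all genes from 2008 higher and 1949 lower into 2850 higher and 1512 lower.

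**Figure D2:**
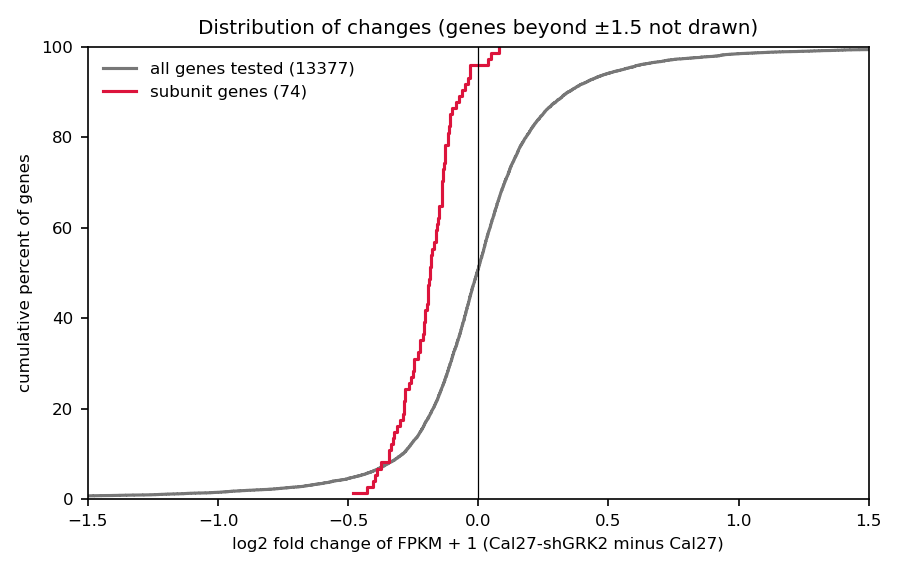
Cumulative percent of genes (y axis) by log2 fold change of FPKM + 1 (Cal27-shGRK2 minus Cal27, x axis) for the 74 subunit genes and for all 13377 genes tested. The subunit curve spans -0.48 to 0.08 with its median at -0.19, while the curve of all genes crosses 50% at -0.01 and reaches far wider on both sides.

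Nuclear respiratory genes are known to share binding sites for a few transcription factors near their start sites, among them nuclear respiratory factor 1 (NRF1), the ETS family factor GABPA (nuclear respiratory factor 2), YY1 and Sp1. RefSeq promoter windows on GRCh38.p14, from 250 bases before to 50 bases after the gene start, were matched by symbol for 62 of the 75 subunit genes and searched on both strands, each motif counted by itself wherever matches overlapped. The NRF1 letters GCGCANGCG were found in 20 of the 62 (32.3%), against 7.52% of all 35116 promoters and 13% of the 13245 promoters of tested genes. The ETS letters CCGGAAG were found in 19 (30.6%, against 10.3% and 17.4%), the YY1 letters AAGATGGC in 11 (17.7%, against 2.89% and 4.93%), and the Sp1 letters GGGGCGGGG in 9 (14.5%, against 15.7% and 25.5%). At least 1 of these 4 motifs was in 44 of the 62, and 24 of the 34 promoters of genes that fell held one, as did 20 of the 27 promoters of tested genes that did not pass the threshold. For single motifs these pairs of counts were 12 and 8 for NRF1, 13 and 6 for ETS, 6 and 5 for YY1, and 4 and 5 for Sp1. A match is a stretch of letters and does not show that the factor binds there.

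In each complex, the gene that fell most among those whose promoter window held a match was taken. Genes without a match or a promoter window, such as COX7B and NDUFA4, were passed over. Windows of 30 bases around matches are shown for members of each complex, 5 that fell and SDHA, which did not, to let the letters of both kinds be compared. They run 5′ to 3′ on the gene's strand with the match in capitals, and CTTCCGG, CGCGTGCGC and the like are matches on the opposite strand. In its promoter window SDHA holds 4 NRF1 matches, ATP5I holds 3 and an ETS match, COX5B holds 2 ETS matches and an Sp1 match that is not shown, SDHB holds an ETS and a YY1 match, and NDUFA1 and UQCRH hold 1 ETS match each. The 4 SDHA stretches are evenly spaced and alike in sequence, so these matches need not be independent of each other.
NDUFA1 chrX:119871774-119871803 (plus strand): ttccgtcgcttCTTCCGGagccgtacgtgg
SDHB chr1:17054142-17054171 (minus strand): cacccgggaaaCCGGAAGccgcctcccact
SDHB chr1:17054004-17054033 (minus strand): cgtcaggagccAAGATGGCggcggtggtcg
UQCRH chr1:46303641-46303670 (plus strand): agtgtgccgcaCTTCCGGccagatcgccgg
COX5B chr2:97646014-97646043 (plus strand): gaagcccgcccCCGGAAGtccctcctgtct
COX5B chr2:97646046-97646075 (plus strand): gcagcttgttcCCGGAAGttttgctgctag
ATP5I chr4:674476-674505 (minus strand): cgcagcaactGCGCAGGCGcagccgatgat
ATP5I chr4:674430-674459 (minus strand): agcctttgtgCGCGTGCGCctcacgtgacg
ATP5I chr4:674335-674364 (minus strand): gccgctgacgGCGCATGCGtgcgcccagct
ATP5I chr4:674255-674284 (minus strand): tgcaggttgtgCTTCCGGtgcggaggtcag
SDHA chr5:218144-218173 (plus strand): ggtccgctttGCGCAGGCGcggcgccccca
SDHA chr5:218193-218222 (plus strand): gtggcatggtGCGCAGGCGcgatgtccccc
SDHA chr5:218242-218271 (plus strand): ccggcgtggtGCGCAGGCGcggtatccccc
SDHA chr5:218291-218320 (plus strand): ccggtgtggtGCGCAGGCGcagtctgcgca

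Complex I, NADH dehydrogenase, is the largest complex of the chain, with a core that carries the flavin and iron-sulfur clusters and many small accessory subunits around it. Of its 37 nuclear subunit genes, 16 fell (43.2%, against 14.6% of all genes) and 0 rose, with a median log2 change of -0.16. Of the 30 genes counted as accessory subunits, NDUFA4 among them, 15 fell (median -0.17). By name, 8 of 13 NDUFA genes, 5 of 11 NDUFB genes, 1 of 2 NDUFC genes, 2 of 8 NDUFS genes and 0 of 3 NDUFV genes fell. The count of 16 was 4 without Cal27-shGRK2 replicate 0, 10 without Cal27-shGRK2 replicate 2 and 9 without Cal27 replicate 2.

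The largest fall in complex I, and of all members tested that were called, was in NDUFA4 (ENSG00000189043.9, chr7:10931951-10940256, minus strand; coordinates of genes are from GENCODE v29 on GRCh38). NDUFA4 was first assigned to complex I and has since been described as a subunit of cytochrome c oxidase. By its name it is counted under complex I, and not under complex IV, in all counts, medians and sums here. It was at 213, 201 and 213 FPKM in Cal27 and at 140.5 and 158 FPKM in Cal27-shGRK2, with both knockdown libraries well below all 3 others (-0.48 ± 0.07, limma adjusted p = 4.31e-05). Its paralogue NDUFA4L2, known as a hypoxia-induced gene, was too low to be tested, at 0.323, 0.298 and 0.176 FPKM in Cal27 and at 0.237 and 0.597 FPKM in Cal27-shGRK2, and the groups overlapped. NDUFA1, a small membrane-spanning accessory subunit encoded on the X chromosome, was at 127, 145 and 143 FPKM in Cal27 and at 102 and 109 FPKM in Cal27-shGRK2, without overlap (-0.39 ± 0.07, adjusted p = 0.000461). NDUFC1, another accessory subunit of the membrane arm, was at 46.3, 49.8 and 48.5 FPKM in Cal27, against 36.1 and 40.0 FPKM after knockdown (-0.34 ± 0.07, adjusted p = 0.00129). NDUFA6, an accessory subunit that anchors an acyl carrier protein to the complex, varied little within either group, at 128, 128 and 132 FPKM against 105 and 107 FPKM (-0.28 ± 0.06, adjusted p = 0.00163). In NDUFA5, an accessory subunit of the arm that faces the matrix, Cal27 replicate 1 was close to the knockdown libraries, at 45.2, 36.5 and 46.2 FPKM in Cal27 and at 33.0 and 34.9 FPKM in Cal27-shGRK2. Its change of -0.31 ± 0.09 passed the threshold (adjusted p = 0.0294), but it no longer did so under 8 of the 16 alternatives, among them those without Cal27 replicate 0 or without either Cal27-shGRK2 library.

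Among the core subunits of complex I, NDUFS1, the largest core subunit and a carrier of iron-sulfur clusters, was at 64.1, 67.3 and 62.8 FPKM in Cal27 and at 53.5 and 62.3 FPKM in Cal27-shGRK2 (-0.16 ± 0.07, adjusted p = 0.105). The Cal27-shGRK2 replicate 2 value of NDUFS1 lay just under the lowest Cal27 value. NDUFS3 (-0.13, adjusted p = 0.116), NDUFV1, which binds NADH and flavin (-0.12, adjusted p = 0.144), and NDUFV2 (-0.14, adjusted p = 0.142) did not pass the threshold, although in each of them both knockdown libraries were below all 3 Cal27 libraries. NDUFS8 (-0.13, adjusted p = 0.242) and NDUFS7 (-0.07, adjusted p = 0.467) overlapped between the groups.

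At the other end of complex I were NDUFC2 and NDUFS4, both accessory subunits. NDUFC2 was the 1 subunit gene with both knockdown libraries above all Cal27 libraries, at 325, 322 and 316 FPKM in Cal27 and at 329 and 335 FPKM in Cal27-shGRK2, and the difference was small and did not pass the threshold (0.05 ± 0.06, limma adjusted p = 0.573). NDUFS4, known from its mutations in Leigh syndrome, was at 61.8, 60.0 and 67.0 FPKM in Cal27, against 64.2 and 68.9 FPKM after knockdown (0.08 ± 0.07, adjusted p = 0.414), with overlapping groups. NDUFC2 also shares sequence with its readthrough partner NDUFC2-KCTD14. That transcript was at 0.766, 4.42 and 6.37 FPKM in Cal27 and at 1.98 and 1.92 FPKM in Cal27-shGRK2, a spread within Cal27 that covers both knockdown libraries. The split of reads between NDUFC2 and the readthrough is uncertain.

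Complex II, succinate dehydrogenase, also takes part in the tricarboxylic acid cycle. SDHB and SDHD fell, while SDHC and SDHA did not pass the threshold. The iron-sulfur subunit SDHB (ENSG00000117118.9, chr1:17018722-17054170, minus strand) was at 146, 145 and 151 FPKM in Cal27 and at 116 and 129.6 FPKM in Cal27-shGRK2 (-0.26 ± 0.06, limma adjusted p = 0.00583). The membrane anchor SDHD was at 82.2, 79.4 and 83.0 FPKM in Cal27, against 66.3 and 70.6 FPKM after knockdown (-0.25 ± 0.06, adjusted p = 0.00567). The groups did not overlap in either gene, and replicate 0 was the lower of the knockdown libraries in both. The other anchor, SDHC, was at 165, 179.6 and 166 FPKM in Cal27 and at 148 and 160.4 FPKM in Cal27-shGRK2, without overlap (-0.14 ± 0.06, adjusted p = 0.115). SDHA, the flavoprotein that binds succinate, was at 68.8, 73.8 and 66.8 FPKM in Cal27 and at 70.6 and 72.5 FPKM in Cal27-shGRK2. Both knockdown values of SDHA lay inside the Cal27 range (0.04 ± 0.06, adjusted p = 0.72). Without Cal27-shGRK2 replicate 0, neither SDHB (adjusted p = 0.111) nor SDHD (adjusted p = 0.0839) passed, which left 0 genes of this complex past the threshold.

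Complex III, the cytochrome bc1 complex, had calls in nearly all the nuclear genes that the name rule took. Of 8 subunit genes, 7 fell (87.5%, against 14.6% of all genes), with a median log2 change of -0.26. In all 8, both knockdown libraries were below all 3 Cal27 libraries, against 27.4% of all genes. UQCRH, the hinge protein that sits by cytochrome c1 (ENSG00000173660.11, chr1:46303631-46316776, plus strand), was at 387, 384 and 401 FPKM in Cal27 and at 304 and 312 FPKM in Cal27-shGRK2 (-0.34 ± 0.06, limma adjusted p = 0.000318). The core proteins UQCRC1 and UQCRC2 face the matrix and resemble the mitochondrial processing peptidase. UQCRC1 was at 229, 259 and 224 FPKM in Cal27, against 179 and 198 FPKM after knockdown, with Cal27 replicate 1 the highest (-0.33 ± 0.07, adjusted p = 0.00291). UQCRC2 was at 173, 187 and 184 FPKM in Cal27, against 143 and 158 FPKM after knockdown (-0.27 ± 0.06, adjusted p = 0.0057). UQCRFS1 encodes the Rieske iron-sulfur protein, which moves electrons from ubiquinol to cytochrome c1. It was at 53.4, 53.0 and 50.7 FPKM in Cal27 and at 39.8 and 45.8 FPKM in Cal27-shGRK2, again lowest in replicate 0 (-0.29 ± 0.07, adjusted p = 0.00522). The small subunits UQCRB (-0.25), UQCR11 (-0.20) and UQCR10 (-0.18) also fell, and UQCRQ (-0.13, adjusted p = 0.118) did not pass. Cytochrome c1 itself, CYC1, has a name outside the rule and is not among the 8. It was at 131, 153 and 139 FPKM in Cal27 and at 127 and 138 FPKM in Cal27-shGRK2. The groups overlapped in CYC1, and it did not pass (-0.09 ± 0.07, limma adjusted p = 0.385). Without Cal27-shGRK2 replicate 0, 1 gene of complex III, UQCRH, stayed past the threshold, and UQCRC1 (adjusted p = 0.0702), UQCRC2 (0.109) and UQCRFS1 (0.123) did not.

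Complex IV, cytochrome c oxidase, had the lowest median of the 5 complexes. Of 10 subunit genes tested, 8 fell, with a median log2 change of -0.29, and in 9 the groups did not overlap. COX7B (ENSG00000131174.4, chrX:77899438-77907373, plus strand), a small membrane-spanning subunit, was at 181, 149 and 156 FPKM in Cal27 and at 120.5 and 119 FPKM in Cal27-shGRK2, with Cal27 replicate 0 the highest (-0.43 ± 0.08, limma adjusted p = 0.000657). COX6C, another small membrane-spanning subunit, was at 269, 256 and 284 FPKM in Cal27, against 202 and 207 FPKM after knockdown (-0.40 ± 0.06, adjusted p = 0.000161). COX5B, a zinc-binding subunit on the matrix side, was at 282, 302 and 277 FPKM in Cal27 and at 203 and 241 FPKM in Cal27-shGRK2. The knockdown libraries differed from each other in COX5B more than the Cal27 libraries did, and both were below them (-0.37 ± 0.07, adjusted p = 0.00141). COX7C was at 583, 561 and 593 FPKM in Cal27, against 470.2 and 455 FPKM after knockdown (-0.32 ± 0.06, adjusted p = 0.000565). The catalytic core of this complex is encoded by mitochondrial DNA and was not measured.

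COX4I1 and COX5A join that core early in assembly. COX4I1 was at 603, 626 and 619.7 FPKM in Cal27 and at 544 and 560.4 FPKM in Cal27-shGRK2, without overlap, and lay just outside the threshold (-0.16 ± 0.06, limma adjusted p = 0.0502). COX5A was at 225, 234 and 212 FPKM in Cal27, against 216 and 221 FPKM after knockdown, with overlapping groups (-0.03 ± 0.06, adjusted p = 0.735). Several oxidase subunits have tissue isoforms. The general forms were measured at high levels, and of the tissue forms named here only COX6B2 was among the genes analysed. COX6B1 was at 347, 355 and 355 FPKM in Cal27 and at 285 and 287 FPKM in Cal27-shGRK2 (-0.30 ± 0.06, adjusted p = 0.000833), and the testis form COX6B2 was at 0.241, 0.191 and 0.364 FPKM in Cal27, against 0.496 and 0.308 FPKM after knockdown, too low to be tested. COX7A2, the general form of that subunit, was at 293, 298 and 316 FPKM in Cal27, against 244 and 252 FPKM after knockdown (-0.29 ± 0.06, adjusted p = 0.00191). COX8A, the most abundant of all members, was at 1339, 1538 and 1495 FPKM in Cal27 and at 1236 and 1308 FPKM in Cal27-shGRK2 (-0.19 ± 0.07, adjusted p = 0.0425). COX6A1 also fell (-0.18, adjusted p = 0.0302). The calls of COX8A and COX6A1 were lost under 11 and 9 of the 16 alternatives. COX4I2, COX6A2, COX7A1, COX7B2 and COX8C were not analysed here.

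**Figure D3:**
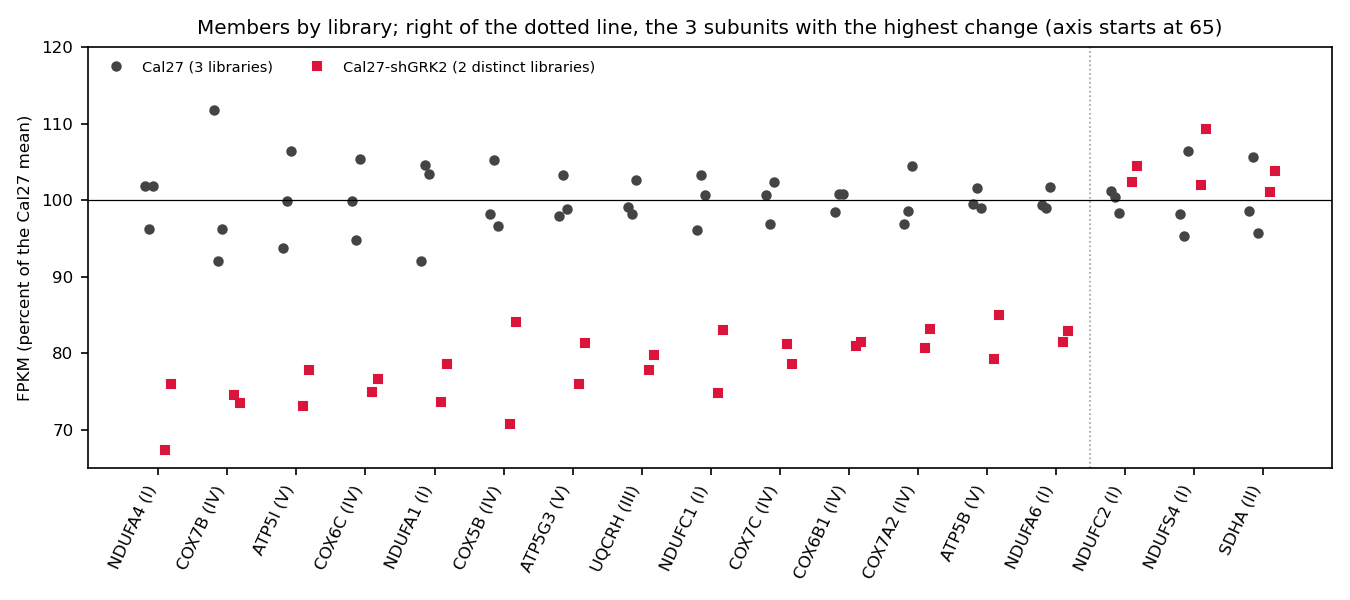
FPKM in each library as a percent of the Cal27 mean (y axis, which starts at 65) for the 14 subunit genes past the threshold under all alternatives and, right of the dotted line, the 3 with the highest change. In the 14, both Cal27-shGRK2 libraries lie below all 3 Cal27 libraries, while in NDUFC2, NDUFS4 and SDHA they lie above the Cal27 mean.

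Complex V, the ATP synthase, consists of the catalytic F1 head in the matrix and the proton-carrying Fo part in the membrane, joined by a central and a peripheral stalk. Of its 15 subunit genes, 9 fell (60.0%, against 14.6% of all genes) and 0 rose, with a median log2 change of -0.21. In 13, both knockdown libraries were below all 3 Cal27 libraries, against 27.4% of all genes. ATP5I, now ATP5ME (ENSG00000169020.9, chr4:672436-674338, minus strand), encodes the membrane subunit e, which takes part in dimers of the enzyme. It was at 264, 282 and 300.2 FPKM in Cal27 and at 206 and 219.6 FPKM in Cal27-shGRK2 (-0.40 ± 0.07, limma adjusted p = 0.000242). ATP5B, the catalytic beta subunit and the most abundant gene of the complex, was at 901, 919 and 895 FPKM in Cal27 and at 718 and 769 FPKM in Cal27-shGRK2, with close Cal27 values (-0.28 ± 0.06, adjusted p = 0.00175). ATP5O, which joins the head to the peripheral stalk, was at 348, 352 and 361 FPKM in Cal27, against 277 and 306 FPKM after knockdown (-0.28 ± 0.06, adjusted p = 0.00292). ATP5E, the small epsilon subunit of the central stalk, was at 80.4, 67.6 and 78.3 FPKM in Cal27, against 62.3 and 64.3 FPKM after knockdown, where Cal27 replicate 1 lay near the knockdown values. Its change (-0.25 ± 0.07, adjusted p = 0.0205) lost its call under 10 of the 16 alternatives. ATP5J (-0.23) and ATP5L (-0.21) also fell. The call of ATP5O was lost without Cal27-shGRK2 replicate 0 (adjusted p = 0.0634), and 3 genes of the complex, ATP5I, ATP5G3 and ATP5B, then stayed past the threshold. Without Cal27 replicate 2 the count was 5.

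The other large subunits of the F1 head did not pass. ATP5A1, the alpha subunit that alternates with beta in the head, was at 267, 266 and 259 FPKM in Cal27 and at 238 and 255 FPKM in Cal27-shGRK2, below all Cal27 libraries by a small margin (-0.10 ± 0.06, limma adjusted p = 0.223). ATP5C1, the gamma subunit of the rotor shaft, was at 116, 108 and 118 FPKM in Cal27, against 101 and 106 FPKM after knockdown (-0.14 ± 0.06, adjusted p = 0.105). Of the 5 F1 genes, 2 fell, ATP5B and ATP5E.

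Subunit c, which forms the rotating ring of Fo, is made by 3 genes, ATP5G1, ATP5G2 and ATP5G3, whose mature proteins are the same. ATP5G3 gave the largest share in all 5 libraries, at 627, 661 and 632 FPKM in Cal27 and at 487 and 521 FPKM in Cal27-shGRK2 (-0.34 ± 0.06, limma adjusted p = 0.000429). ATP5G1 was at 381, 445 and 389.6 FPKM in Cal27, against 334 and 358 FPKM after knockdown (-0.23 ± 0.07, adjusted p = 0.027), and ATP5G2 at 362, 388 and 386 FPKM in Cal27, against 315 and 350.0 FPKM after knockdown (-0.19 ± 0.06, adjusted p = 0.0402). All 3 fell, but the calls of ATP5G1 and ATP5G2 were lost under 7 and 9 of the 16 alternatives. Their summed level was 1369, 1493 and 1408 FPKM in Cal27, against 1135 and 1229 FPKM in Cal27-shGRK2. The share of ATP5G3 in that sum was 45.8%, 44.3% and 44.9% in Cal27 and 42.9% and 42.4% in Cal27-shGRK2, so the knockdown libraries were lower without overlap; this difference was not tested.

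Summed over its subunit genes, each complex was lower in both knockdown libraries than in any Cal27 library. Complex I summed to 5298, 5562 and 5451 FPKM in Cal27 and to 4780 and 5022 FPKM in Cal27-shGRK2, 9.87% lower in the mean. Complex II summed to 463, 477 and 466 FPKM and to 402 and 433 FPKM, 11.0% lower. Complex III, the most even across the Cal27 libraries, summed to 1613, 1635 and 1616 FPKM and to 1323 and 1403 FPKM, 15.9% lower. The sums of complex IV and complex V are each led by a few abundant genes, such as COX8A and ATP5B. Complex IV summed to 4690, 4913 and 4874 FPKM and to 4029 and 4161 FPKM, 15.2% lower. Complex V summed to 5367, 5483 and 5422 FPKM and to 4477 and 4822 FPKM, 14.3% lower. Replicate 0 was the lower of the knockdown libraries in all 5 sums. All 75 subunit genes together made up 2.84%, 2.80% and 2.86% of the FPKM total in Cal27 and 2.54% and 2.57% in Cal27-shGRK2. In this share, both knockdown libraries lay below all 3 Cal27 libraries. That total also holds other genes that changed, and neither the sums nor the shares were tested. In fits of single genes, 30 members fell with libraries rescaled to a common total, against 11.3% of all genes. With quantile normalization 34 fell (15.7% of all genes), and with median-of-ratios scaling 43 (15.4%).

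**Figure D4:**
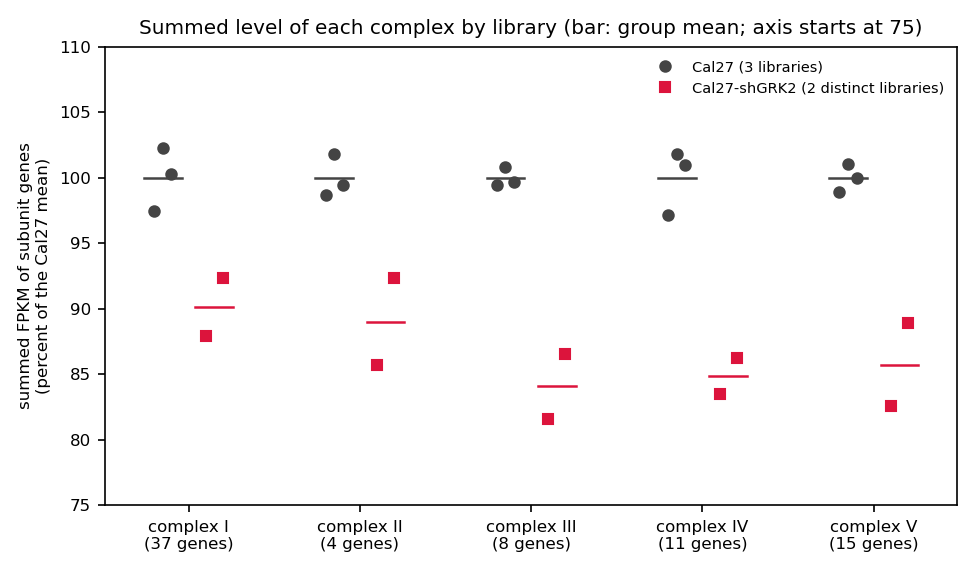
Summed FPKM of the subunit genes of each complex as a percent of the Cal27 mean (y axis, which starts at 75), with 1 point per library and a bar at each group mean. Both Cal27-shGRK2 libraries lie below all 3 Cal27 libraries in every complex, between 81.6% and 92.4% of the Cal27 mean.

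None of the 12 members that are not subunit genes was called. Of the 8 that could be tested, 0 fell and 0 rose, against 14.6% and 15.0% of all genes. Their groups overlapped in all 8, where 27.4% of all genes were lower and 25.9% higher without overlap. At an unadjusted p under 0.05 none was lower or higher. The set is small, and whether it differs from the subunit genes was not tested. ATP5SL, now DMAC2 and known in complex I assembly, was at 46.2, 54.0 and 51.0 FPKM in Cal27 and at 49.9 and 50.05 FPKM in Cal27-shGRK2 (-0.01 ± 0.07, limma adjusted p = 0.943). ATP5S was at 10.5, 12.3 and 11.9 FPKM in Cal27, against 10.7 and 10.9 FPKM after knockdown (-0.09 ± 0.08, adjusted p = 0.424). The readthrough ATP5J2-PTCD1 was at 3.21, 3.31 and 3.47 FPKM in Cal27, against 3.11 and 3.40 FPKM after knockdown (-0.03, adjusted p = 0.864). The remaining tested members of this kind, beside NDUFC2-KCTD14, had mean levels just above the limit of 1 FPKM for testing. The pseudogene UQCRFS1P1 had a log2 change of -0.25 ± 0.24, NDUFV2P1 one of -0.12, ATP5G1P4 one of -0.08 and the antisense RNA NDUFB2-AS1 one of 0.19 (adjusted p = 0.248). NDUFA6-AS1, at 0.630, 0.901 and 0.839 FPKM in Cal27, against 0.596 and 0.483 FPKM after knockdown, NDUFV2-AS1, at 0.686, 0.567 and 1.02 FPKM in Cal27, against 0.687 and 0.973 FPKM after knockdown, and ATP5HP4, at most 0.222 FPKM in any library, were too low to be tested. Many subunit genes have processed copies in the genome with which they can share reads. GENCODE v29 names at least 1 pseudogene after 44 of the 75 subunit genes, among them COX6C with 17 and NDUFA5 and NDUFB4 with 12 each, and after 25 of the 42 that fell. The levels of these genes are uncertain to the extent that such reads were split.

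Other genes of the same pathway were described from lists of known function. For comparison, 14.6% of all genes tested fell and 15.0% rose. Of 7 measured subunits or carriers whose names fall outside the rule, 3 fell (42.9%) and 0 rose (median -0.18). Cytochrome c, CYCS, which shuttles electrons between complexes III and IV, was at 365, 359.9 and 401 FPKM in Cal27 and at 271 and 300.1 FPKM in Cal27-shGRK2 (-0.39 ± 0.07, limma adjusted p = 0.000387). The small ATP synthase components C14orf2 (-0.28) and USMG5 (-0.23) also fell. NDUFAB1 (-0.18), CYC1 (-0.09), COX7A2L (-0.08) and ATPIF1 (-0.03) did not pass the threshold. Of 15 complex I assembly factors, 9 fell (60.0%) and 0 rose (median -0.19), led by NDUFAF4 (-0.44), NDUFAF5 (-0.35) and NDUFAF2 (-0.26). That count was 3 without Cal27-shGRK2 replicate 0, 5 without Cal27-shGRK2 replicate 2 or without Cal27 replicate 2, and 4 with libraries rescaled to a common total. Of 35 assembly factors of complexes II to V, 10 fell (28.6%) and 0 rose (median -0.16). SDHAF1, which helps to place the iron-sulfur clusters of SDHB, was at 14.4, 15.8 and 14.4 FPKM in Cal27, against 9.34 and 10.1 FPKM after knockdown (-0.56 ± 0.08, adjusted p = 3.83e-05), and UQCC2 (-0.35) and SDHAF3 (-0.33) followed. Of 16 genes of ubiquinone synthesis and the electron transfer flavoprotein, 3 fell (18.8%, near the share of all genes) and 0 rose (median -0.10). The 3 were COQ4 (-0.57), COQ3 (-0.28) and ETFB (-0.19). Without Cal27-shGRK2 replicate 0 the calls of C14orf2, COQ3 and ETFB were lost, and 5 assembly factors of complexes II to V fell. Without Cal27 replicate 2, 6 of those factors fell.

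Among 11 measured regulators of mitochondrial biogenesis, 3 fell (27.3%, against 14.6% of all genes) and 0 rose (median -0.06). PPARGC1B, a coactivator of respiratory genes, was at 2.75, 3.17 and 2.96 FPKM in Cal27 and at 1.77 and 1.79 FPKM in Cal27-shGRK2 (-0.51 ± 0.10, limma adjusted p = 0.000923). Its partner ESRRA, an orphan nuclear receptor, was at 74.6, 83.7 and 79.2 FPKM in Cal27, against 55.9 and 60.9 FPKM after knockdown (-0.43 ± 0.07, adjusted p = 0.000168). TFB2M, a factor for transcription of mitochondrial DNA, fell by 0.32 on the log2 scale. The mRNA of NRF1 itself (-0.07, adjusted p = 0.575) and that of TFAM, which packages mitochondrial DNA (-0.02, adjusted p = 0.869), did not pass the threshold. PPARGC1A was too low to be tested, at 0.915, 0.836 and 0.919 FPKM in Cal27, against 0.563 and 0.615 FPKM after knockdown, without overlap.

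Of 17 pyruvate dehydrogenase and tricarboxylic acid cycle genes, 6 fell (35.3%, against 14.6% of all genes) and 0 rose (median -0.12). Among the 6 were PDHA1 (-0.31), SUCLG1 (-0.26) and MDH2 (-0.23). Citrate synthase, CS, often used as a measure of mitochondrial content, was at 139.5, 159 and 141 FPKM in Cal27 and at 139.6 and 149 FPKM in Cal27-shGRK2, with overlapping groups (-0.02 ± 0.07, limma adjusted p = 0.829). Of 16 genes of mitochondrial mass and protein import, 6 fell (37.5%) and 0 rose (median -0.15). They were led by the chaperonins HSPE1 (-0.35) and HSPD1 (-0.31) and by MFN2 (-0.27), a fusion protein of the outer membrane. Of 16 glycolysis genes, 4 fell (25.0%) and 2 rose (12.5%, against 15.0% of all genes), with a median of -0.08. ALDOC (-0.28), PFKM (-0.28) and TPI1 (-0.26) were the largest falls, and the 2 that rose were ENO2 (0.66, adjusted p = 3.88e-05) and PFKP (0.28, adjusted p = 0.00885; 0.11 without Cal27-shGRK2 replicate 2). Without Cal27-shGRK2 replicate 0, the genes that fell numbered 1 for pyruvate dehydrogenase and the cycle, 2 for mass and import and 2 for glycolysis, and SUCLG1, MDH2, MFN2 and TPI1 lost their calls. Mass and import had 3 without Cal27 replicate 2, and ALDOC lost its call without Cal27 replicate 0 or Cal27-shGRK2 replicate 2. Of 82 cytosolic ribosomal protein genes, 15 fell and 1 rose (median -0.11). Of 77 mitochondrial ribosomal protein genes, 13 fell and 2 rose (median -0.08). Differences between these lists and the subunit genes were not tested.

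**Figure D5:**
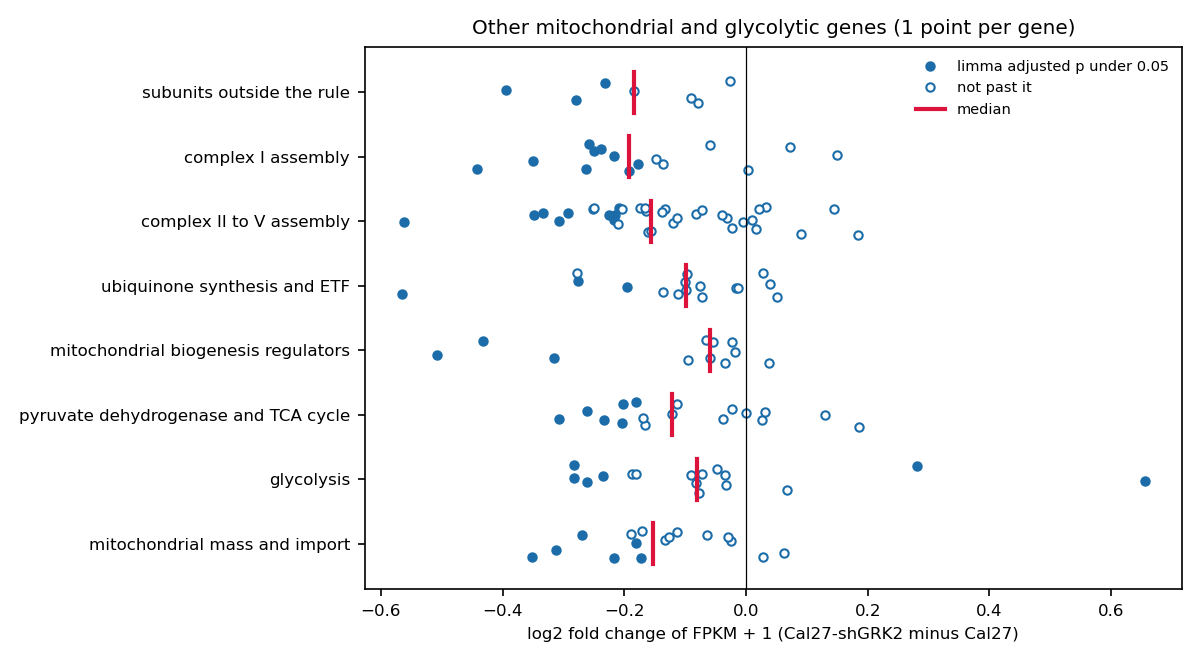
Log2 fold change of FPKM + 1 (Cal27-shGRK2 minus Cal27, x axis) of each gene in 8 lists of respiratory, mitochondrial and glycolytic genes, with filled points for a limma adjusted p under 0.05 and a bar at each median. All 8 medians lie between -0.19 and -0.06, and ENO2 (0.66) and PFKP (0.28) are the 2 filled points above 0.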

How the data were processed

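RNA from Cal27 and Cal27-shGRK2 cultures was sequenced with a stranded mRNA kit, per the labels' protocols. Bowtie2 2.2.6, TopHat2 2.1.0, Cuffdiff 2.2.1 and the hg38 genome are named in the submitters' processing notes; the sources used here do not name the gene annotation. Deposited values were FPKM per library and per condition and, per the file headers, the authors' log2 fold change, test statistic (a score), p-value and q-value of the comparison. An FPKM estimate of 0 was written as 0.0001 by the authors, and was read as 0. Per the file, the authors' condition FPKM equalled the mean of the 3 columns (within 1e-04) in 13383 of 13383 genes for Cal27, but in 52 of 13383 (0.39%) for Cal27-shGRK2, where 2 columns are identical.

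Members were matched by name and given positions and transcript lengths from GENCODE v29 (87 of 87 matched, and 18503 of all 18678 genes). Genes that averaged 1 FPKM or more entered limma 3.58.1 (R 4.3.3) as log2(FPKM + 1) (trend and robust options, two-sided, 3 residual degrees of freedom, Benjamini-Hochberg over all genes tested, threshold 0.05); a fold change on this scale understates that of low genes. The fit was tested on simulated data. Tables and figures were made with Python 3.11.15, pandas 2.3.3 and matplotlib 3.10.9. The alternatives were another pseudocount, other filters, other scalings, another variance model, removal of a transcript length trend, the replicate number as a block, leaving out each library, and an added library for Cal27-shGRK2. The members, lists and motifs were chosen with earlier results of these data known. Genes named are GRK2, up to 5 called members per complex and direction with the largest change, core subunits, isoform sets, members that are no subunit, and up to 3 called genes per list and direction, plus PPARGC1A, TFAM, NRF1 and CS. NDUFC2, NDUFS4, NDUFV3, UQCRQ and the other subunits outside this rule were named after their values were seen. The values of 1 complex I gene are not reported here, though it is counted.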

Additional observations from a re-analysis of the deposited data

How the results depend on the processing

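Over the alternatives, of the values of 79 named genes 1148 kept their side of the threshold, 92 no longer passed it and 16 newly passed it. Of the values that passed, 0 changed direction. The small changes of CS (-0.02) and TFAM (-0.02), which did not pass, had the opposite sign without Cal27-shGRK2 replicate 0. The 42 members that fell, against 14.6% of all genes, became 24 with limma's trend and robust options off (11.9% of all genes lower), 27 without Cal27 replicate 2 (11.9%), 14 without Cal27-shGRK2 replicate 0 (8.13%), and 14 to 39 over all fits that left out 1 library (8.13% to 13.8%). The other settings, apart from the replicate block, gave 30 to 50 (10.5% to 17.2%). For all genes past the threshold, 3957 became 2600 to 4028 with a library left out (1088 to 1843 lower, 1218 to 2205 higher). For complex I, 16 became 9 after rescaling to a common total, 5 without trend, 9 after removal of the length trend and 4 to 15 with a library left out. For complex II, 2 became 0 to 2, and for complex III, 7 became 1 to 7, with a library left out. For complex V, 9 became 5 without trend and 3 to 8 with a library left out. The median log2 change of the members, -0.18, became -0.13 after rescaling to a common total, -0.14 after quantile normalization, and -0.22 to -0.14 with a library left out. The cause was not tested, beyond that leaving out a library leaves fewer samples. The replicate numbers are not stated to pair the samples. Residuals of same-numbered libraries correlated at 0.08 and 0.017 across genes, and those of differently numbered libraries at -0.08 to 0.071. With 2 Cal27-shGRK2 libraries, the residuals of one mirror those of the other, so these values cannot decide whether the samples were paired. With the replicate number as a block, 36 members fell with the shared Cal27-shGRK2 column as number 0 (13.5% of all genes lower), and 25 with it as number 1 (13.0%; 7 in complex I and 4 in complex III). A further Cal27-shGRK2 library, computed from the authors' condition mean and chosen after seeing the data, gave 50 members that fell. Depth per library is unknown, so precision rests on 3 and 2 libraries, and the smallest fall in mean FPKM that passed among the members was 11.3%.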
